A study of Rattus norvegicus with 15 samples.

Results

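Multifidus muscle of rats that had spinal surgery followed by a vitamin D injection (the VitD group, 3 libraries) was compared with muscle of uninjured rats (the control group, 2 libraries). These 5 libraries were chosen by their group labels alone, out of 15 libraries in 5 groups. All rats were wild type male Sprague Dawley rats aged 12 weeks that weighed 340 to 370 g. Control rats had neither injury nor injection. VitD rats received cholecalciferol at 150 µg (6000 IU) at each site, 300 µg in total, and no pMT (plasma-derived mitochondria). The operation, as the study's methods give it, was a hemilaminectomy with removal of the laminas and the facet joint of the lower lumbar spine and ligation of the left L5 spinal nerve. The study's supplementary figures also show that nerve cut proximal to the tie. The surgery group (2 libraries) had the operation with no treatment after it. The study's methods place treatment 2 weeks after the operation and tissue collection 2 weeks after that, but do not describe the schedule of the VitD group itself, and no group with an injection of carrier alone is described. VitD against control therefore measures the operation, the injection and VitD together, and their parts cannot be told apart. The labels used here name no processing batch, so a difference in handling between the groups cannot be told apart from these either. Each library was labelled as a separate numbered sample of its group, and the labels do not say that each came from a separate rat. The p-values therefore measure the spread between libraries, which the main test estimated from all 15 and not from these 5 alone.

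The multifidus is a deep muscle that stabilizes the lumbar spine, and its fibres are supplied by branches of the spinal nerves. A muscle fibre that loses its nerve makes acetylcholine receptors along its whole surface, induces the myogenic factor myogenin and takes up some proteins of the fetal sarcomere. Injured muscle is also entered by macrophages and is remodelled by fibroblasts that lay down collagen. Vitamin D acts through the vitamin D receptor, which pairs with a retinoid X receptor, and Cyp24a1, which degrades the active hormone, is the gene known to respond to it most directly.

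To show the genes on which the receptor results rest, the 250 bases before the annotated start are printed for 3 acetylcholine receptor subunit genes and for myogenin (Myog), from RefSeq on the GRCr8 build. Capitals mark CAGCTG, an E-box that the muscle regulatory factors of the MyoD family can bind and that reads the same on both strands.
Chrna1, chr3:78877354-78877603, minus strand: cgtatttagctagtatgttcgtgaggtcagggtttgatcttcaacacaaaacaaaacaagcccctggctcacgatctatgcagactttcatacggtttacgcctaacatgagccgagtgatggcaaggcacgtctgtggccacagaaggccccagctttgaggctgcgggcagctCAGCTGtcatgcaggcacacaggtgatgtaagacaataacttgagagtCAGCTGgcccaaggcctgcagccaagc
Chrng, chr9:95325734-95325983, plus strand: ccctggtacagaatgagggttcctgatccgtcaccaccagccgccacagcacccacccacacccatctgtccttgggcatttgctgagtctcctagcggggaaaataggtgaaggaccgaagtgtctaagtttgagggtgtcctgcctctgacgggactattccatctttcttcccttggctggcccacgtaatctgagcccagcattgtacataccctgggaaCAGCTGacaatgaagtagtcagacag
Chrnd, chr9:95310066-95310315, plus strand: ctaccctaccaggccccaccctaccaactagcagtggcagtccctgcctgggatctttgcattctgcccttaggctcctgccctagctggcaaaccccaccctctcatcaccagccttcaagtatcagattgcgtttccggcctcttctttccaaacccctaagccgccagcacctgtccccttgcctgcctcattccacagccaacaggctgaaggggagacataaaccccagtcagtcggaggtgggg
Myog, chr13:48297226-48297475, plus strand: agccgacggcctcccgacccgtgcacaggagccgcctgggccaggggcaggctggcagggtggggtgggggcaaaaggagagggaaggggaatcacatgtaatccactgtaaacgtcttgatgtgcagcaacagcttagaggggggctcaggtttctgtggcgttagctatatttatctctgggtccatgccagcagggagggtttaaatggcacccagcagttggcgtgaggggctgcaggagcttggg
The Chrna1 promoter held 2 matches, which began 75 and 27 bases before the start, and the Chrng promoter held 1, which began 26 bases before it. The Chrnd and Myog windows held 0 matches to these letters. By comparison, 12.0% of all 33469 promoters in the RefSeq table held the motif in the same 250 bases, as did 12.8% of the 14438 promoters that matched genes tested here. The share was 13.5% of 755 promoters of genes called higher in VitD and 13.8% of 484 promoters of genes called lower. By list, it was 7 of 11 promoters of receptor and neuromuscular junction genes, 0 of 13 of denervation-induced regulators and 3 of 9 of developmental sarcomere genes, few promoters in each case. A match describes the sequence and is no measured binding site.

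Total counts were 68592996 and 64352162 in the controls and ranged from 61902001 to 71377227 in VitD, so depth was similar. The muscle identity list (12 genes such as Ckm and Acta1) was detected in full in every library, with a summed level of 181740 to 197590 CPM in the controls and 126530 to 163310 CPM in VitD. Levels are given as CPM, counts scaled to the library total after TMM scaling, a scaling that assumes that most genes do not change. VitD replicate 1 stood apart from the other VitD libraries. The spread of log2 ratios (a robust SD, from the median absolute deviation) over 7804 genes was 0.295 and 0.396 between replicate 1 and replicates 2 and 3, against 0.145 between replicates 2 and 3. Replicates 2 and 3 lay closer to the surgery libraries (0.0994 to 0.164) than to replicate 1. The spread was 0.152 between the controls and 0.503 to 0.519 between VitD replicate 1 and the controls. Every pair of these libraries differed by more than counting noise, so no library was taken as a copy of the reads of another. The ratio of their squared differences to counting noise was 4.95 between the controls and 2.80 between the surgery libraries. This check cannot show whether any of them came from the same rat. Across genes, the rank correlation between gene length and a library's deviation from the mean level was 0.146 and 0.244 in the controls and -0.104, 0.266 and 0.483 in VitD replicates 1 to 3. The length trend was therefore also removed as an alternative.

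Of 17201 genes tested, 1492 differed between VitD and control (adjusted p under 0.05, edgeR's quasi-likelihood test with Benjamini-Hochberg adjustment, fitted to all 15 libraries). This was 8.67% of the genes tested. Of these, 942 were higher in VitD (5.48% of genes tested) and 550 were lower (3.2%), and genes that passed this test are described as called. A change of at least 2-fold was reached by 432 of the higher and 128 of the lower genes. The median log2 fold change of all genes tested was -0.0125. All 3 VitD libraries lay on one side of both controls in 1491 of the 1492 called genes, and in 25% (higher) and 27.1% (lower) of all genes tested. For a called gene, groups that do not overlap are therefore no further support. The rule in the study's methods (edgeR's exactTest on these 5 libraries, unadjusted p under 0.05 with at least a 2-fold change) gave 1335 differentially expressed genes among 16594, of which 950 were higher and 385 lower, and 571 of them were also among the 1492 genes called by the quasi-likelihood test. With libraries scaled by total counts alone, 2660 genes were called higher and 135 lower, and the median of all genes rose to 0.27, so small decreases are relative to the TMM scale. With the length trend removed, 2378 genes were called, 1292 higher and 1086 lower.

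**Figure D1:**
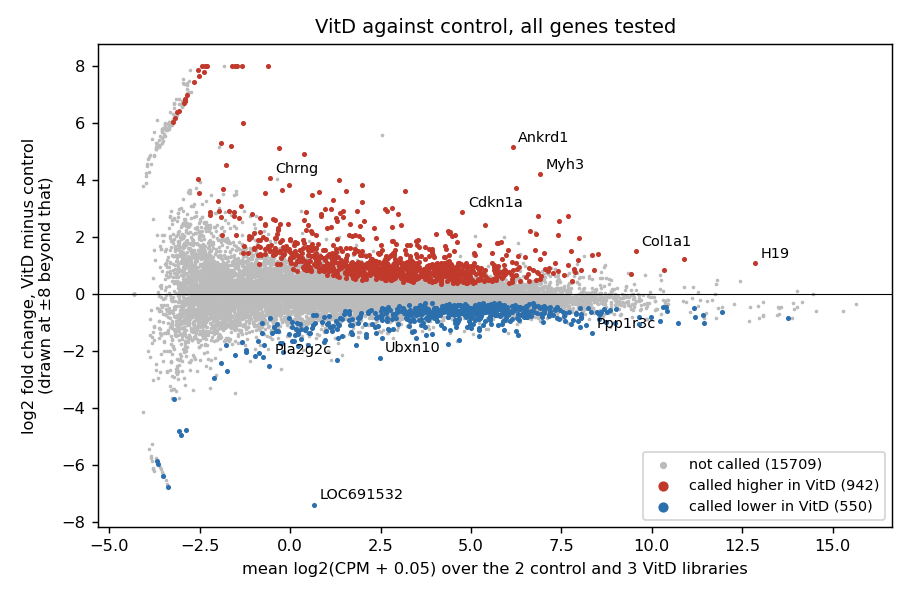
Each point is 1 of 17201 genes, with its mean level over the 5 libraries (log2 of CPM + 0.05) on the horizontal axis and its log2 fold change (VitD minus control) on the vertical axis. Called genes are coloured, 942 higher and 550 lower, and the higher genes reach larger changes at middle and high levels than the lower ones, with LOC691532 as the exception.

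The number of calls rested on single libraries. Without VitD replicate 1, 612 of 17080 genes were called (3.58%), 390 higher (2.28%) and 222 lower (1.3%), and 585 of these were among the 1492. Without VitD replicate 2 there were 774 calls and without replicate 3 there were 2396. With 1 control in place of 2, calls fell to 13 (without control replicate 1) or 29 (without control replicate 2), and with only the VitD and control libraries in the fit they numbered 96. In the called higher genes, the median log2 ratio to the control mean was 1.08, 0.73 and 0.571 in VitD replicates 1 to 3. In the called lower genes it was -0.915, -0.61 and -0.485. VitD replicate 1 was the highest of the 3 in 833 of the 942 higher genes and the lowest in 488 of the 550 lower genes, and replicate 2 held the middle place in 1194 of all 1492. With only the VitD and control libraries in the fit, 22 of the 143 called genes named here passed. Of the same 143, 91 passed without VitD replicate 1. Those that did not were Aldoa, Alpl, Aplnr, Bbc3, Cacna1s, Casp8, Ccna2, Cd4, Chrnd, Ciart, Col11a1, Ctsb, Ctsl, Ctss, Cxcl16, Des, Dnaja1, Dpt, Eci1, Emcn, Fas, Gadd45a, Gdf11, Grn, Hspa5, Ier3, Ifit2, Igf2, Igfbp4, Inhbb, Kcnc1, Klf4, Ltbp2, Mff, Mx1, ND4L, ND5, Nkg7, Npas2, Pnpla2, Ppard, Pparg, RT1-Bb, Rsad2, Sbk2, Sfrp2, Srm, Thy1, Tie1, Tnfrsf22, Ube2c and Vcam1.

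**Figure D2:**
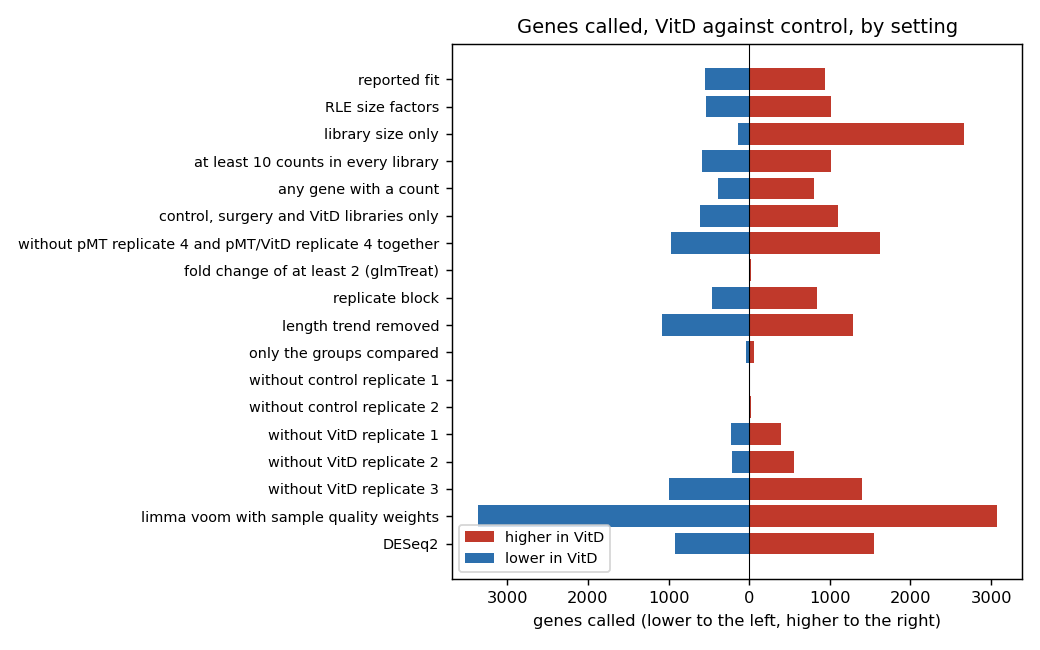
Bars give the number of genes called between VitD and control under each way of fitting, with genes lower in VitD to the left of 0 and genes higher in VitD to the right. The reported fit gave 942 and 550, the fits without a control gave 13 and 29 in all, and limma voom with quality weights gave 3067 higher and 3367 lower.

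Genes of the fetal sarcomere and of fibre stretch were among the largest increases. Ankrd1, an ankyrin repeat protein of the sarcomere that stretch and injury induce, stood at 10.3 and 10.4 CPM in the controls and 752, 267 and 84.7 CPM in VitD replicates 1 to 3, with a log2 fold change of 5.15 (SE 0.77, adjusted p = 0.00393) by the test named above. Even its lowest VitD library was far above both controls, and the 3 VitD libraries differed widely among themselves. Embryonic myosin heavy chain, Myh3, had 30.7 and 21.9 CPM in the controls and 993, 343 and 113 CPM in VitD replicates 1 to 3 and a log2 fold change of 4.20 (SE 0.87, adjusted p = 0.0136). Cardiac actin, Actc1, which fetal skeletal muscle also makes, had 18.98 and 17.3 CPM in the controls and 445, 184 and 88.5 CPM in VitD replicates 1 to 3 and a log2 fold change of 3.72 (SE 0.54, adjusted p = 0.00334). Cardiac troponin T, Tnnt2, had 2.30 and 2.23 CPM in the controls and 51.0, 21.2 and 10.6 CPM in VitD replicates 1 to 3 and a log2 fold change of 3.60 (SE 0.62, adjusted p = 0.00647). The groups did not overlap for any of these 4 genes, as for nearly all called genes. Each of the 4 kept its call without VitD replicate 1 (adjusted p 0.00189, 0.0267, 0.00137 and 0.00916). They were the 4 called members among 10 genes tested of the developmental sarcomere list, 0 being lower, against 5.48% called higher among all genes. The median of that list was 1.41 (0.98 without VitD replicate 1). The slow troponin I of developing and slow fibres, Tnni1, on the same list, had 558 and 556 CPM against 637, 674 and 712 CPM and was not called (adjusted p = 0.434). Myh3 and Actc1 have close paralogs with which reads could be shared.

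Of the acetylcholine receptor, 3 subunits that the fetal and extrasynaptic receptor holds rose. Chrng, the gamma subunit of the fetal receptor, had 0.142 and 0.099991 CPM in the controls and 3.86, 1.43 and 0.833 CPM in VitD replicates 1 to 3 (9 and 6 counts against 330, 98 and 64), with a log2 fold change of 4.05 (SE 0.72, adjusted p = 0.00696) from the same test. Chrna1, the alpha subunit that binds acetylcholine, had 4.86 and 5.23 CPM in the controls and 24.4, 14.5 and 10.9 CPM in VitD replicates 1 to 3 and a log2 fold change of 1.72 (SE 0.29, adjusted p = 0.00581). Chrnd, the delta subunit, had 3.74 and 3.10 CPM in the controls and 19.8, 10.7 and 6.82 CPM in VitD replicates 1 to 3 and a log2 fold change of 1.86 (SE 0.42, adjusted p = 0.0188). As for nearly all genes called higher, every VitD library was above both controls for all 3 genes, and replicate 1 was the highest. Of these, Chrnd did not pass without VitD replicate 1 (adjusted p = 0.0601). The adhesion molecule Ncam1, named after its values were seen, was also called at 1.35. In all, 5 of 18 receptor and neuromuscular junction genes were higher, against 5.48% of all genes. In that list 0 were lower and the median was 0.24. Its members with the most counts were Ache, the enzyme that splits acetylcholine (63.8 and 52.5 CPM against 36.9, 50.3 and 57.4 CPM, adjusted p = 0.577), and the adult sodium channel Scn4a (129.7 and 124 CPM against 31.1, 69.2 and 82.5 CPM, adjusted p = 0.214), and neither was called. Without VitD replicate 1, 3 members were called. The summed level of the list was 305 to 332 CPM in the controls and 288 to 298 CPM in VitD.

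Regulators that muscle induces on denervation showed the same direction in 11 of 14 genes tested, with a median of 0.33. Of the 14, 4 were called higher, against 5.48% of all genes, and 0 lower. Myog, the basic helix-loop-helix factor that turns on receptor genes, had 20.5 and 18.3 CPM in the controls and 59.1, 47.2 and 44.8 CPM in VitD replicates 1 to 3 and a log2 fold change of 1.37 (SE 0.19, adjusted p = 0.00238), and its VitD libraries lay close together. Runx1, a transcription factor of denervated fibres, had 8.44 and 8.12 CPM in the controls and 39.2, 20.4 and 14.7 CPM in VitD replicates 1 to 3 and a log2 fold change of 1.58 (SE 0.32, adjusted p = 0.0124). Gadd45a, a stress protein of denervated nuclei, had 11.9 and 13.0 CPM in the controls and 47.7, 32.4 and 25.8 CPM in VitD replicates 1 to 3 and a log2 fold change of 1.501 (SE 0.33, adjusted p = 0.0158), and missed the threshold without VitD replicate 1 (adjusted p = 0.0544). Cdkn1a, the cell cycle inhibitor p21, had 9.23 and 8.62 CPM in the controls and 114, 50.3 and 32.1 CPM in VitD replicates 1 to 3 and a log2 fold change of 2.87 (SE 0.42, adjusted p = 0.00334), and its lowest VitD library was above both controls. Among 16 genes of atrophy ubiquitin ligases and Foxo factors only Fbxo30, a ligase of the bone morphogenetic protein pathway, was called, at 14.0 and 17.7 CPM against 25.4, 23.7 and 29.1 CPM with a log2 fold change of 0.71. The muscle ligase Trim63 (MuRF1) had 287 and 313 CPM against 258, 305 and 318 CPM (log2 fold change -0.032, adjusted p = 0.929) and Foxo3, a factor that drives atrophy genes, had 7.01 and 6.87 CPM against 2.54, 4.88 and 5.87 CPM (adjusted p = 0.569). The list's median was -0.31, and its 1 call of 16 was close to the 5.48% called higher among all genes.

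**Figure D3:**
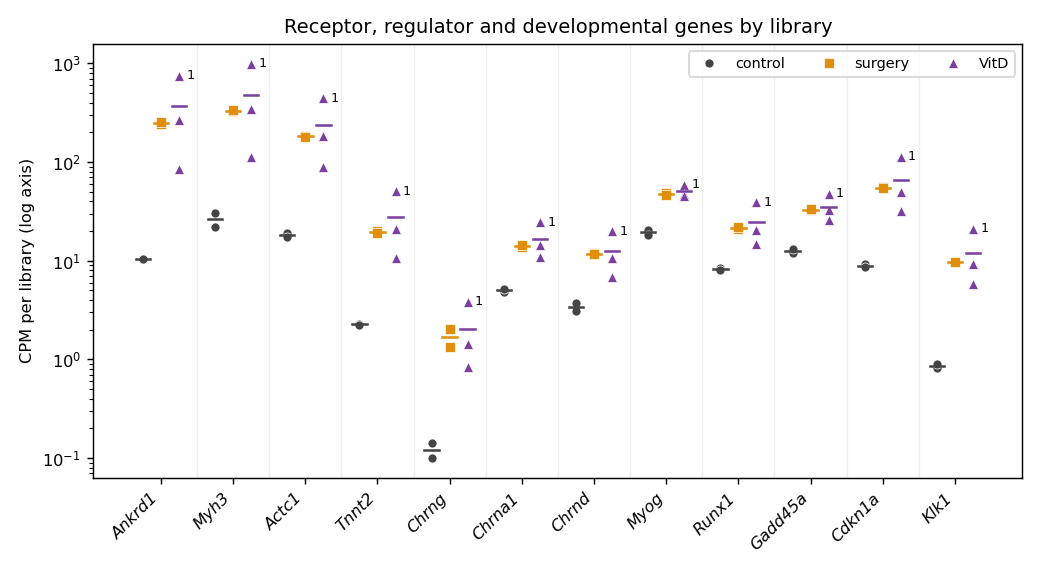
Points give the CPM of each library on a log axis for 12 genes, with circles for control, squares for surgery and triangles for VitD (VitD replicate 1 is marked 1), and short lines give group means. In all 12 genes the VitD libraries lie above both controls, replicate 1 is the highest VitD library, and the surgery libraries lie between VitD replicates 1 and 3. All 12 were called higher, and nearly all such genes separate from the controls in this way.

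Satellite cell and fusion genes were called mostly in the higher direction. Tmem8c (myomaker), the membrane protein that fuses myoblasts, had 1.85 and 1.13 CPM against 6.20, 3.71 and 2.62 CPM and a log2 fold change of 1.49 (adjusted p = 0.0137, quasi-likelihood test). Vcam1, a surface protein of satellite cells and endothelium, had 4.84 and 5.28 CPM against 15.5, 9.36 and 7.95 CPM and a log2 fold change of 1.11. Des, the intermediate filament desmin that links the Z-discs, fell from 5272 and 5084 CPM to 2780, 3487 and 3768 CPM, with a log2 fold change of -0.63 (SE 0.16, adjusted p = 0.0278), and was at an adjusted p of 0.0539 without VitD replicate 1. In all 5 of 16 genes were higher (Myog, Tmem8c, Vcam1, Megf10 at 0.65 and Heyl at 0.63) and 1 lower (Des), against 5.48% and 3.2% of all genes, with a median of 0.091. Without VitD replicate 1, 4 were higher and 0 lower, with a median of -0.014. Nes (nestin), the filament protein of immature and regenerating fibres, had 12.8 and 12.3 CPM in the controls and 77.6, 36.6 and 19.2 CPM in VitD replicates 1 to 3 and a log2 fold change of 1.83 (SE 0.42, adjusted p = 0.0203). It was 1 of 2 genes higher (the other was Ankrd1) and 1 lower (Des) among 16 of Z-disc and stretch response, and Fhl1, with the most counts of that list beside Des, was not called (adjusted p = 0.609).

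Fast fibre and muscle identity genes had lower summed levels in VitD on the TMM scale, without a called gene. The TMM factors were 0.924 and 0.933 in the controls and 1.20, 1.11 and 1.09 in VitD replicates 1 to 3, so these levels depend on that scaling. The fast fibre list summed to 169580 to 169590 CPM in the controls and 113000 to 144510 CPM in VitD, and in 9 of its 13 genes all 3 VitD libraries lay below both controls, against 27.1% of all genes. None of these 13 genes and of 12 muscle identity genes was called, where 3.2% of all genes were called lower, and their medians were -0.31 and -0.34 (-0.22 and -0.20 without VitD replicate 1). Under the alternatives the medians ranged from -0.405 to -0.0307 for fast fibre and from -0.475 to -0.0604 for muscle identity. Muscle creatine kinase, Ckm, had 33860 and 29311 CPM in the controls and 13578, 22714 and 26029 CPM in VitD replicates 1 to 3 (adjusted p = 0.125) and skeletal actin, Acta1, had 66590 and 54962 CPM against 37646, 49417 and 54554 CPM (adjusted p = 0.259). VitD replicate 1 was the lowest library for both. Slow fibre genes had a median of 0.23, and 1 of 11 was called, Casq2, the calcium store protein of slow and cardiac muscle, with 75.8 and 76.9 CPM in the controls and 332, 171 and 114 CPM in VitD replicates 1 to 3 and a log2 fold change of 1.43 (SE 0.34, adjusted p = 0.0222). Slow myosin, Myh7, had 1783 and 1688 CPM against 1636, 2155 and 2303 CPM and was not called (adjusted p = 0.567). In bulk muscle, fewer fibres and less RNA per fibre cannot be told apart.

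Lists of calcium handling and of membrane channels held a few called genes. Cacna1s, the voltage sensor of the transverse tubule, had 1319 and 1238 CPM in the controls and 348, 687 and 819.9 CPM in VitD replicates 1 to 3 and a log2 fold change of -1.05 (SE 0.27, adjusted p = 0.0325) with an adjusted p of 0.0521 without VitD replicate 1. Orai1, the pore of store-operated calcium entry, fell to 62.0, 58.5 and 57.9 CPM from 101 and 83.8 CPM. These were the 2 lower genes of 23 calcium handling genes, Casq2 was the 1 higher gene, and the median was -0.37. Among all genes 3.2% were called lower, and without VitD replicate 1 the list held 1 lower gene, against 1.3% of all genes. The pump of the fast sarcoplasmic reticulum, Atp2a1, had 23268 and 21514 CPM against 7169, 13816 and 16456 CPM and was not called (adjusted p = 0.0731). Among potassium and sodium channel genes 4 of 20 were lower and 1 was higher. Kcnj11, the pore of the ATP-sensitive potassium channel, had 217 and 187 CPM in the controls and 54.7, 109 and 139.8 CPM in VitD replicates 1 to 3 and a log2 fold change of -0.996 (SE 0.25, adjusted p = 0.0266). Kcnc1, a voltage-gated potassium channel, had 1.25 and 1.22 CPM against 0.503, 0.611 and 0.377 CPM and a log2 fold change of -1.31, and the potassium channels Kcnj12 and Kcna7 had -0.95 and -0.64.

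Glycolysis and glycogen genes were lower in 8 of 28 cases and higher in 0, with a median of -0.52, against 3.2% lower among all genes. Ppp1r3c, a glycogen-targeting subunit of protein phosphatase that promotes glycogen storage, had 573 and 605 CPM in the controls and 141, 249 and 291 CPM in VitD replicates 1 to 3 and a log2 fold change of -1.38 (SE 0.22, adjusted p = 0.00473). Pfkfb1, which makes the activator of phosphofructokinase, had 66.1 and 64.3 CPM in the controls and 18.3, 32.4 and 40.3 CPM in VitD replicates 1 to 3 and a log2 fold change of -1.11 (SE 0.24, adjusted p = 0.0145). Aldoa, the muscle aldolase, had 21482 and 19258 CPM in the controls and 7389, 12232 and 14121 CPM in VitD replicates 1 to 3 and a log2 fold change of -0.86 (SE 0.24, adjusted p = 0.0402). As for nearly all genes called lower, the VitD libraries were below both controls for all 3, with replicate 1 the lowest. Without VitD replicate 1, 4 members were called, the median was -0.38 and Aldoa had an adjusted p of 0.0775. Gapdh, a glycolytic enzyme often taken as a reference gene, had 16524 and 15321 CPM against 7037, 10358 and 11640 CPM and was not called (adjusted p = 0.0668).

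Most nuclear genes of the respiratory chain had small negative values on the TMM scale, and none passed the test. The 38 complex I genes and 42 genes of complexes II to V had 0 calls, with medians of -0.24 and -0.19, and 35 and 36 of them had a negative log2 fold change. With libraries scaled by total counts alone the medians were 0.0478 and 0.093, so their direction turned with the scaling. Of 13 protein genes encoded in mitochondrial DNA 2 were called lower, against 3.2% of all genes, and the median was -0.74. ND5, a complex I subunit, had 4000.2 and 4578 CPM in the controls and 1846, 2235 and 2301 CPM in VitD replicates 1 to 3 and a log2 fold change of -1.01 (SE 0.29, adjusted p = 0.0451), and ND4L had a log2 fold change of -0.83. Neither passed without VitD replicate 1 (adjusted p 0.147 and 0.145). These 13 genes took 14.5% and 15.6% of all counts in the controls and 10.9% to 13.0% in VitD. Cox4i1, a subunit of cytochrome c oxidase, had 807 and 736 CPM against 773, 679 and 646 CPM (adjusted p = 0.764), and Ppargc1a, the coactivator of mitochondrial biogenesis PGC-1α, had 21.8 and 22.9 CPM against 18.6, 19.5 and 20.1 CPM (log2 fold change -0.21, adjusted p = 0.315). The AMPK subunits Prkaa1 and Prkaa2 had log2 fold changes of 0.36 and -0.49 and the kinase Akt1 of -0.10, and none was called (adjusted p 0.226, 0.284 and 0.62). Of mitochondrial biogenesis and dynamics genes 1 of 27 was lower, the fission receptor Mff (-0.45), close to the 3.2% called lower among all genes. Of fatty acid oxidation genes 1 of 29 was higher and 2 were lower, with Cpt1a, which lets fatty acids into the mitochondrion, at 0.63 and Eci1 and Ppard at -0.56 and -0.67. This share was close to the 8.67% called among all genes.

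**Figure D4:**
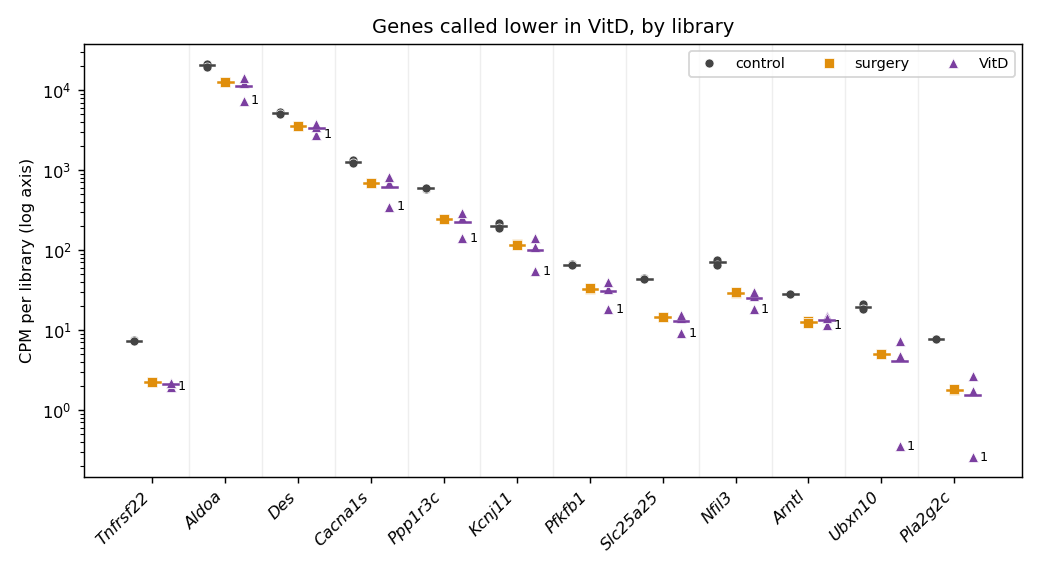
Points give the CPM of each library on a log axis for 12 genes called lower in VitD, with the same symbols as in the plot of receptor and developmental genes. In all 12 the VitD libraries lie below both controls and VitD replicate 1 is the lowest, down to 0.351 CPM for Ubxn10 and 0.257 CPM for Pla2g2c. Nearly all genes called lower separate from the controls in this way.

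Among single genes, the largest decreases under the naming rule were in Pla2g2c, a secreted phospholipase, with 7.62 and 7.73 CPM in the controls and 0.257, 1.75 and 2.65 CPM in VitD replicates 1 to 3 and a log2 fold change of -2.31 (SE 0.53, adjusted p = 0.0197), and in Ubxn10, with 20.9 and 18.0 CPM in the controls and 0.351, 4.76 and 7.21 CPM in VitD replicates 1 to 3 and a log2 fold change of -2.25 (SE 0.63, adjusted p = 0.0422). Tnfrsf22, a decoy receptor of the tumour necrosis factor family, had 7.49 and 7.20 CPM against 1.94, 2.17 and 2.20 CPM (log2 fold change -1.80) and Slc25a25, a calcium-sensitive carrier of ATP-magnesium into mitochondria, had 44.4 and 43.0 CPM against 9.08, 14.3 and 15.4 CPM (log2 fold change -1.76). The remaining lower genes chosen by that rule, Ccdc92, Samd11, Mpp3, Sbk2, Nfil3, Slc9a5, Cib2 and Sema7a, had log2 fold changes of -1.62, -1.57, -1.54, -1.51, -1.497, -1.49, -1.46 and -1.45 in that order. Among higher genes Klk1, a kallikrein that releases kinins, had 0.820 and 0.900 CPM in the controls and 21.2, 9.28 and 5.77 CPM in VitD replicates 1 to 3 and a log2 fold change of 3.81 (SE 0.50, adjusted p = 0.0022). Prrt4, Prnd, Ctxn3, Sfrp2, C1qtnf3, Lilrb3b and Emb, also chosen by the rule, had log2 fold changes of 4.01, 3.30, 3.22, 3.02, 2.98, 2.97 and 2.92. Lilrb3b belongs to a receptor family of near-identical copies, so its reads are uncertain.

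Genes of the extracellular matrix rose in VitD. Of 37 genes of matrix proteins, proteases and crosslinkers 17 were higher and 0 lower, with a median of 0.84, against 5.48% higher among all genes tested. Thbs4 (thrombospondin 4), a matrix protein of tendon and injured muscle, had 42.4 and 41.2 CPM in the controls and 491, 220.2 and 113 CPM in VitD replicates 1 to 3 and a log2 fold change of 2.72 (SE 0.60, adjusted p = 0.0169). Postn (periostin), made by activated fibroblasts, had 59.6 and 67.3 CPM in the controls and 613, 318 and 196 CPM in VitD replicates 1 to 3 and a log2 fold change of 2.57 (SE 0.42, adjusted p = 0.00498). Cthrc1, a secreted protein of fibroblasts in wounds, had 0.2998 and 0.600 CPM in the controls and 10.8, 3.55 and 1.77 CPM in VitD replicates 1 to 3 and a log2 fold change of 3.58 (SE 0.74, adjusted p = 0.013). VitD replicate 1 was far above replicate 3 for these genes, and both were above the controls. Sparc, a collagen-binding protein, had 959.6 and 905 CPM against 2236, 1526 and 1259.7 CPM (log2 fold change 0.84).

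Of 40 collagen genes 9 were higher and 0 lower, with a median of 0.60, against 5.48% higher among all genes tested. Col1a1 and Col3a1, which form the fibrils of types I and III, had 458 and 388 CPM in the controls and 1779, 1032 and 784 CPM in VitD replicates 1 to 3 and 1190.4 and 1191 CPM against 3907, 2458 and 1902 CPM in the same order, with log2 fold changes of 1.503 (SE 0.33, adjusted p = 0.0163) and 1.21 (SE 0.26, adjusted p = 0.0151). Col11a1, a minor fibril chain, had 2.11 and 1.92 CPM against 16.3, 8.12 and 5.49 CPM (log2 fold change 2.31), and Col16a1, a fibril-associated chain, had 9.13 and 8.80 CPM against 33.3, 19.3 and 16.2 CPM (log2 fold change 1.36). Col11a1 lost its call without VitD replicate 1 (adjusted p = 0.156). Without that library 12 matrix and 6 collagen genes were called, all higher, with medians of 0.62 and 0.49. Fibroblast and progenitor markers had a median of 0.55, and 3 of 17 were higher, which were Thy1 (1.4001), Fap (1.07) and Dpt (0.80). Their summed level was 802 to 819 CPM in the controls and 978 to 1799.6 CPM in VitD, and its part in the matrix results was not tested.

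Growth factor genes rose in part, beside 5.48% of all genes called higher and 3.2% called lower. In the TGF-beta, myostatin and activin list 6 of 23 genes were higher and 1 was lower (Inhbb, an activin chain, -0.70), with a median of 0.26. Fstl1, a secreted follistatin-like protein, had 135 and 139 CPM in the controls and 361, 255 and 214 CPM in VitD replicates 1 to 3 and a log2 fold change of 1.02 (SE 0.19, adjusted p = 0.00788). Ltbp2, a matrix protein related to the carriers of latent TGF-beta, had 1.06 and 0.667 CPM against 11.1, 5.09 and 2.45 CPM (log2 fold change 2.85) and Gdf11, a ligand close to myostatin, had 2.67 and 2.70 CPM against 6.22, 5.996 and 3.93 CPM (log2 fold change 1.004), and neither passed without VitD replicate 1 (adjusted p 0.145 and 0.111). In the IGF list 3 of 14 were higher. Igf2, the fetal insulin-like growth factor, had 121 and 118 CPM in the controls and 473, 301 and 242 CPM in VitD replicates 1 to 3 and a log2 fold change of 1.51 (SE 0.38, adjusted p = 0.0287). H19, the noncoding RNA of the same imprinted locus, had 4969 and 4619 CPM in the controls and 11621, 9631 and 8963 CPM in VitD replicates 1 to 3 and a log2 fold change of 1.07 (SE 0.22, adjusted p = 0.0125). Igf2 missed the threshold without VitD replicate 1 (adjusted p = 0.102) and H19 kept it (0.03). Igfbp4, a binding protein of both growth factors, had a log2 fold change of 0.61.

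Macrophage markers were higher in 15 of 27 cases and lower in 0, with a median of 0.82, against 5.48% higher among all genes. Lyz2, the lysozyme of macrophages, had 73.4 and 75.5 CPM in the controls and 240.2, 158 and 122 CPM in VitD replicates 1 to 3 and a log2 fold change of 1.22 (SE 0.21, adjusted p = 0.00641). Gpnmb, a glycoprotein of phagocytosing macrophages, had 7.21 and 7.13 CPM in the controls and 47.9, 26.5 and 17.9 CPM in VitD replicates 1 to 3 and a log2 fold change of 2.10 (SE 0.35, adjusted p = 0.00494). Fcgr2b, the inhibitory antibody receptor, had 1.47 and 1.38 CPM against 8.25, 5.73 and 3.47 CPM and Mpeg1, a pore-forming protein of macrophages, had 4.72 and 5.08 CPM against 20.9, 12.6 and 9.62 CPM, with log2 fold changes of 2.03 and 1.55. All 4 were also called without VitD replicate 1, as were 10 markers in all. The growth factor receptor Csf1r had 43.3 and 37.4 CPM against 65.3, 61.7 and 62.5 CPM and was not called (adjusted p = 0.143). The summed level of the markers was 346 to 349 CPM in the controls and 544 to 848 CPM in VitD, and no marker was at 0 in all 5 libraries.

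Complement genes rose in 11 of 26 cases and fell in 1 (Masp1, a protease of the lectin pathway, -0.80), with a median of 0.78. Among all genes tested 5.48% were called higher and 3.2% lower. C4a, the fourth component, had 8.66 and 8.53 CPM in the controls and 44.5, 38.6 and 34.3 CPM in VitD replicates 1 to 3 and a log2 fold change of 2.19 (SE 0.20, adjusted p = 0.00014), with VitD libraries close together. C3, the central component, had 0.536 and 0.817 CPM against 2.48, 3.04 and 3.03 CPM, and C6, of the membrane attack complex, had 1.34 and 0.817 CPM against 10.5, 6.77 and 6.99 CPM, with log2 fold changes of 2.07 and 2.90. C4a and C4b are near-identical copies that the counting could have split. The regulators with the most counts, Clu and Cd59, were not called (log2 fold changes 0.10 and 0.14). MHC class II genes, which present antigen to helper T cells, were higher in 6 of 10 cases with a median of 0.91, and all 10 had a positive value. Cd74, the invariant chain, had 244 and 233 CPM in the controls and 448, 416 and 410.3 CPM in VitD replicates 1 to 3 and a log2 fold change of 0.83 (SE 0.15, adjusted p = 0.00773). Ciita, the factor that switches class II genes on, had 1.44 and 1.72 CPM against 3.38, 3.74 and 3.62 CPM (log2 fold change 1.18), and RT1-Ba, RT1-Bb and RT1-Da, class II chains with similar copies, had 0.99, 0.99 and 0.76. Without VitD replicate 1, 8 complement genes and 4 class II genes were called higher.

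Other immune lists had fewer calls, beside 5.48% called higher and 3.2% called lower among all genes tested. Of MHC class I and interferon genes 4 of 33 were higher and 1 lower, with a median of 0.35. The antiviral genes Mx1 and Rsad2 had log2 fold changes of 1.002 and 0.81, Ifit2 and Mx2, of the same kind, had 0.78 and 0.72, and Irgm, an interferon-induced GTPase, had -0.94 (22.3 and 27.1 CPM against 12.3, 13.8 and 12.6 CPM). Of chemokines and cytokines 3 of 27 were higher. These were Cxcl13, which draws B cells (0.394 and 0.633 CPM against 3.12, 2.39 and 1.83 CPM, log2 fold change 2.25), Ccl6, a chemokine of macrophages (7.56 and 8.83 CPM against 27.7, 22.8 and 18.2 CPM, 1.48) and Cxcl16 (0.90). Of T and NK cell markers 3 of 15 were called higher and all 15 had a positive value, with a median of 1.25. Their summed level, most of it Cd4, was 37.6 to 40.1 CPM in the controls and 63.8 to 82.1 CPM in VitD. Cd247, the zeta chain of the T cell receptor, had 0 counts in both controls and 40, 20 and 39 in VitD, at least 8.68-fold higher against a floor of 3 counts per library. Nkg7, of cytotoxic granules, had 0.158 and 0.200 CPM against 0.948, 0.611 and 0.599 CPM and Cd4, which rat macrophages also make, had 34.4 and 36.5 CPM against 71.2, 61.7 and 57.6 CPM. Of these markers the entry Klrb1 was at 0 in all 5 libraries. Of B cell and plasma cell markers 1 of 9 was called higher, Cd22 (0.742 and 0.450 CPM against 1.46, 1.16 and 1.78 CPM). The log2 fold change was positive in 8 of the 9. Its median was 1.77 (0.59 to 2.05 under the alternatives), or 1.30 with floors applied. The summed level was 73.9 to 77.3 CPM in the controls and 70.0 to 73.5 CPM in VitD. Most of that sum was Xbp1, with 4783 and 4375 counts in the controls, so the sum does not describe the other markers. Of neutrophil and mast cell markers 2 of 13 were lower, the mast cell proteases Tpsb2 (4.23 and 3.95 CPM against 2.29, 1.48 and 1.37 CPM, log2 fold change -1.25) and Cpa3 (6.11 and 7.05 CPM against 4.42, 2.68 and 2.32 CPM, -1.06), and 0 were higher. Erythrocyte markers had 0 calls among 9 and summed levels of 989 to 1126 CPM in the controls and 539.9 to 1079.5 CPM in VitD.

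**Figure D5:**
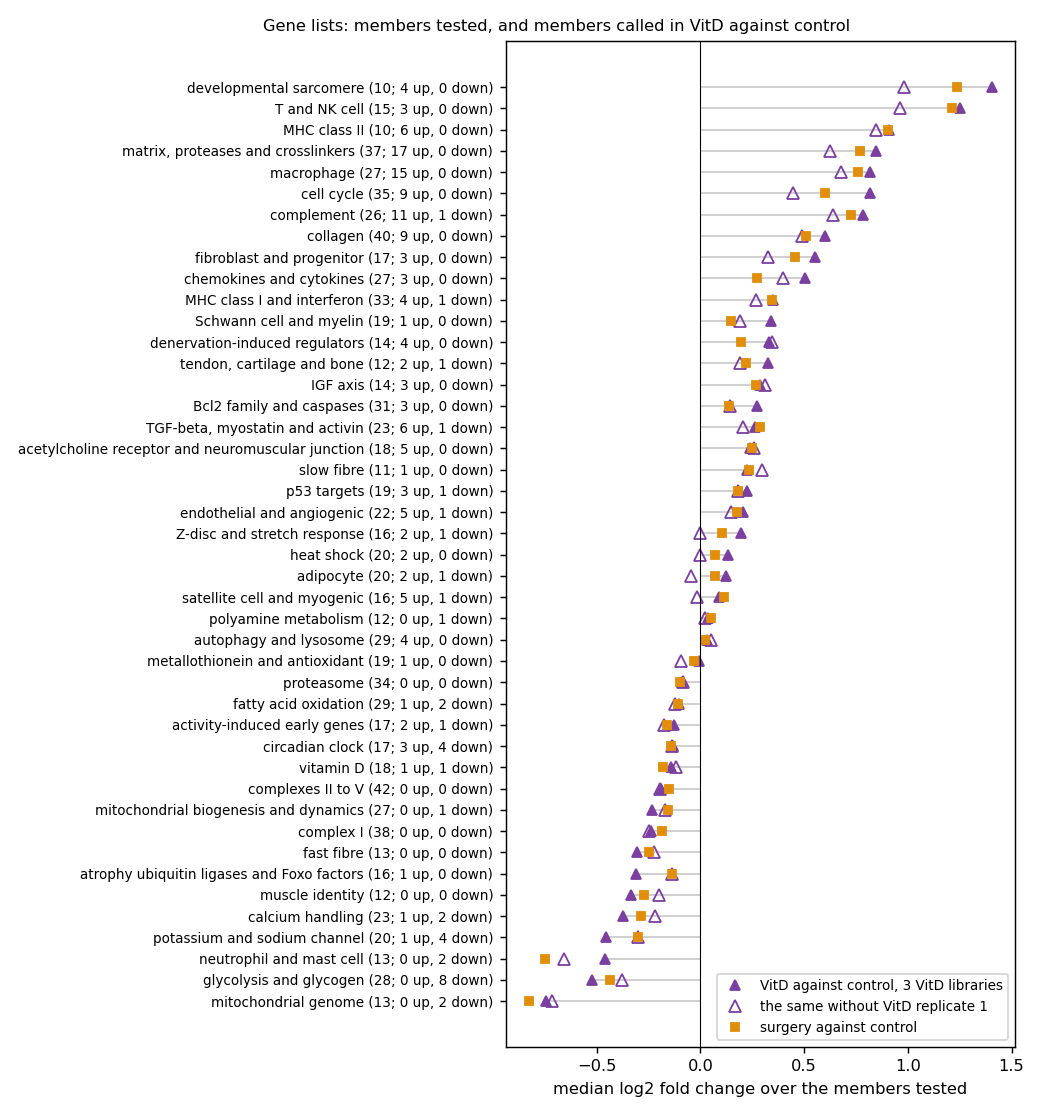
Each row is a gene list with at least 10 members tested, with the number tested and the number called higher and lower in VitD, and symbols give the median log2 fold change of its members. Developmental sarcomere genes lie highest at 1.41 and genes of the mitochondrial genome lowest at -0.74, and most lists lie nearer to 0 without VitD replicate 1 (open triangles).

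Proliferation genes were higher in 9 of 35 cases and lower in 0, with a median of 0.82, against 5.48% higher among all genes. Mki67, the marker of cycling cells, had 3.61 and 4.63 CPM in the controls and 15.8, 9.75 and 6.04 CPM in VitD replicates 1 to 3 and a log2 fold change of 1.35 (SE 0.30, adjusted p = 0.0169). Ube2c, an enzyme of mitotic exit, had 0.757 and 0.733 CPM against 2.68, 2.15 and 1.57 CPM and cyclin A2, Ccna2, had 1.61 and 1.63 CPM against 4.84, 3.23 and 2.51 CPM, with log2 fold changes of 1.52 and 1.12. Only 2 members were called without VitD replicate 1, and the median was then 0.45. Of p53 targets 3 of 19 were higher (Cdkn1a, Gadd45a and Bbc3) and 1 lower (the death receptor Fas, -0.61). Bbc3 (Puma), a trigger of mitochondrial apoptosis, had 1.01 and 0.600 CPM against 2.35, 1.43 and 1.56 CPM and a log2 fold change of 1.14. Of the Bcl2 family and caspases 3 of 31 were higher, among them Bbc3 and Casp8. Casp8, the initiator caspase of death receptors, had a log2 fold change of 0.83. Without VitD replicate 1, Bbc3 and Casp8 missed the threshold (adjusted p 0.173 and 0.152). Bax, which opens the mitochondrial membrane, had 8.06 and 7.30 CPM against 10.8, 9.11 and 7.44 CPM, and Bcl2, which opposes it, had 0.268 and 0.467 CPM against 0.351, 0.277 and 0.169 CPM, and neither was called (adjusted p 0.596 and 0.61).

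Genes of the vitamin D pathway were examined because of the injection. Vdr, the receptor, had 0.584 and 0.550 CPM in the controls and 0.199, 0.364 and 0.442 CPM in VitD replicates 1 to 3 (17 to 37 counts), with a log2 fold change of -0.76 (SE 0.44, adjusted p = 0.295). The target gene Cyp24a1 had 0 counts in all 15 libraries, and with 61902001 to 71377227 counts in the VitD libraries such a 0 allows up to 3 counts in each. Cyp27b1, which makes the active hormone, had 0 and 4 counts in the controls and 6, 5 and 4 in VitD. Cyp2r1, a 25-hydroxylase, had 0.174 and 0.433 CPM against 0.316, 0.451 and 0.273 CPM and was not called (adjusted p = 0.83). Of 18 genes tested 1 was higher and 1 lower, a share close to the 8.67% called among all genes, with a median of -0.14 that turned to 0.136 with libraries scaled by total counts alone. Pdia3, a disulphide isomerase of the endoplasmic reticulum that also binds vitamin D at membranes, had 83.0 and 89.3 CPM in the controls and 179, 137 and 116 CPM in VitD replicates 1 to 3 and a log2 fold change of 0.74 (SE 0.16, adjusted p = 0.0155). Cyp27a1, a sterol hydroxylase that can act on vitamin D, had 29.3 and 28.8 CPM in the controls and 17.0, 20.9 and 20.3 CPM in VitD replicates 1 to 3 and a log2 fold change of -0.58 (SE 0.13, adjusted p = 0.0155). Surgery libraries stood at 123 and 129 CPM for Pdia3 and 19.5 and 19.1 CPM for Cyp27a1, beside or inside the VitD range.

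Clock genes moved in both directions, 3 of 17 higher and 4 lower, against 5.48% and 3.2% of all genes. Per2 and Ciart, both repressors of the clock, had log2 fold changes of 0.62 and 0.99, and Npas2, an activator, and Cry1, a repressor, had -0.85 and -0.88. Dbp, an output factor of the clock, had 19.3 and 18.0 CPM in the controls and 54.8, 48.6 and 46.7 CPM in VitD replicates 1 to 3 and a log2 fold change of 1.43 (SE 0.21, adjusted p = 0.00334). Arntl (Bmal1), of the core activator, had 28.2 and 28.2 CPM in the controls and 11.4, 14.7 and 14.0 CPM in VitD replicates 1 to 3 and a log2 fold change of -1.08 (SE 0.15, adjusted p = 0.00238), and Nfil3, which opposes Dbp at its sites, had 75.0 and 65.1 CPM against 18.3, 26.2 and 30.0 CPM. All 3 passed without VitD replicate 1. The hour of tissue collection is not given in the sources used here, and its part in these values was not tested. Of activity-induced early genes 2 of 17 were higher, Ier3 (0.90) and Klf4 (0.44), and 1 was lower, Slc25a25. Endothelial and angiogenic genes were higher in 5 of 22 cases, with Apln, a peptide of growing vessels, at 1.07 (3.75 and 4.18 CPM against 11.1, 7.57 and 6.34 CPM) and Plvap, of vessel windows, at 1.05 beside Emcn (0.93), Aplnr (0.75) and Tie1 (0.48), while Vegfa, the main vessel growth factor, was lower (109 and 109 CPM against 73.4, 58.4 and 52.03 CPM, log2 fold change -0.83).

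The remaining lists held 0 to 4 called genes each, beside 8.67% called among all genes tested. Counts this small were not read as results about a list. For the cell type markers, called members numbered 2 higher and 1 lower of 20 adipocyte genes, with Cfd (adipsin) at 1.10, Pparg at 0.90 and Pnpla2 at -0.37. Schwann cell and myelin genes had 1 higher of 19, Cnp (0.98), a myelin enzyme, and tendon, cartilage and bone genes had 2 higher, the osteoclast and macrophage genes Acp5 (1.58) and Ctsk (0.96), and 1 lower, Alpl (-0.85), of 12. Autophagy and lysosome genes were higher in 4 of 29, the proteases Ctsb (0.82), Ctss (0.82) and Ctsl (0.54) and progranulin, Grn (0.67), with a list median of 0.031, and 0 of these were called without VitD replicate 1. Proteasome subunits had 0 calls among 34 and a median of -0.087. Heat shock genes were higher in 2 of 20, the chaperones Dnaja1 (0.53) and Hspa5 (0.47). Mt1, a metallothionein that binds zinc, had 1.59 and 1.58 CPM in the controls and 11.6, 5.68 and 2.73 CPM in VitD replicates 1 to 3 and a log2 fold change of 2.07 (SE 0.44, adjusted p = 0.0136), and was the 1 called gene of 19 in its list. Srm, the spermidine synthase, was the 1 lower gene of 12 of polyamine metabolism (-0.73).

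VitD and surgery libraries were set side by side, since the VitD rats also had the operation. Between them 0 of 17201 genes were called by edgeR's quasi-likelihood test, 139 had an unadjusted p under 0.05, and DESeq2 called 1 and limma voom with quality weights 419. This count of 0 does not show that the groups act alike. Ankrd1 was at 244 and 253 CPM in the surgery libraries, inside the VitD range, and its difference (VitD minus surgery) was 0.57 on the log2 scale with a 95% interval of -0.75 to 1.88. For Myog, with 48.7 and 46.6 CPM in surgery, the difference was 0.08 (-0.30 to 0.46), and for Chrng, with 2.05 and 1.34 CPM, it was 0.27 (-0.89 to 1.43). Col1a1 differed by 0.18 (-0.50 to 0.85), Ppp1r3c by -0.11 (-0.60 to 0.37), Lyz2 by 0.13 (-0.31 to 0.57) and Vdr by -0.20 (-1.16 to 0.75). Over the 1492 genes called between VitD and control, the mean of the surgery libraries lay between the lowest and the highest VitD library in 1159. VitD replicate 1 widened that range, as the highest in 833 of 942 higher genes and the lowest in 488 of 550 lower genes. The share over all genes was not counted, so the 1159 is no measure of likeness. Surgery against the same controls gave 266 calls (1.55%), 215 higher and 51 lower. Surgery had 2 libraries and VitD 3, so these counts of calls do not compare the size of the changes. Over the 942 genes called higher in VitD, the median log2 ratio to the control mean was 0.711 and 0.718 in the surgery libraries. It was 1.08, 0.73 and 0.571 in VitD replicates 1 to 3, whose values chose these genes. Both comparisons share their 2 controls, so their values are given side by side with no test of likeness. List medians against control were 1.41 in VitD and 1.24 in surgery for developmental sarcomere genes, 0.84 and 0.77 for matrix genes, 0.82 and 0.76 for macrophage markers, -0.52 and -0.44 for glycolysis, and -0.14 and -0.18 for vitamin D genes.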

How the data were processed

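Total RNA of rat multifidus was sequenced as paired ends in 15 libraries, of which the 3 VitD and 2 control libraries are compared here. Reads were trimmed (Trimmomatic 0.38) and aligned to rn6 (HISAT2 2.1.0, SAMtools 1.9) by the authors, who deposited raw read counts per gene made with StringTie 2.1.3b. Strand and multi-mapping settings are not given in the sources used here. The authors also deposited FPKM, which was not used, and TPM, which here served only to give each gene's relative length.

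Counts were tested in R 4.3.3 with edgeR 4.0.16 (TMM, filterByExpr, glmQLFit with robust estimation and glmQLFTest, a Benjamini-Hochberg adjusted p under 0.05) on all 15 libraries, so that all groups share 1 estimate of the spread. On simulated counts for 17201 genes of this comparison, 41% of 100 genes changed 2-fold and 73% of 100 changed 4-fold were recovered, with 7 false calls. Simulated libraries varied independently around 1 mean per gene, with no library that stood apart and no length trend. The real libraries had both, so these rates cannot be carried over to them. DESeq2 1.42.0 and limma 3.58.1 were alternatives. The 46 gene lists and the genes named were chosen with earlier results of these data known. Genes named were the 12 higher and 12 lower called genes of largest fold change without overlap between groups and above 1 in mean log2 CPM, the 6 most abundant called genes of at least 2-fold, up to 2 abundant and 3 called members of each list, and the transcripts of proteins blotted in the study and of the vitamin D pathway. Some genes of this rule are not reported here. Where a list held up to 5 called genes beyond this rule (such as Masp1, Fas and Per2), they were named after their values were seen. A floor of 3 counts per library stands for a count of 0, and floors cover counting error only.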

Additional observations from a re-analysis of the deposited data

How the results depend on the processing

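The number of genes called between VitD and control (1492, 63.1% of them higher) was 2795 with library size only (95.2% higher), 2378 with the length trend removed (54.3% higher), 2589 without pMT replicate 4 and pMT/VitD replicate 4 together, 19 when a 2-fold change was tested with glmTreat, 96 with only the groups compared in the fit, 6434 with limma voom and 2471 with DESeq2. Leaving out 1 replicate gave 13 to 2396. The remaining 5 alternatives gave 1191 to 1712, among them 1298 with the replicate number as a block. Surgery against control (266) gave 997, 542, 716, 5, 5289, 4902 and 1001 in the same order, 106 with the replicate block and 8 to 20 without 1 replicate. VitD against surgery (0) gave 419 with limma voom, 1 with DESeq2 and 0 to 1 without 1 replicate. Fits without 1 of 2 libraries of a group assume that the lone library varies like the other groups. The count by the study's rule with unadjusted p (1335) was 913 (adjusted p) to 1902 (library size only) under its alternatives. The cause of these differences was not tested.

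The labels give groups the same replicate numbers, but the deviations of same-numbered control and VitD libraries correlated at only 0.036 and 0.0592 across genes, so the numbers were not taken to pair them. No called gene named in the text changed direction. Values that were not called did so for Ache (0.00399), Akt1 (0.186), Cox4i1 (0.147) and Ppargc1a (0.0769) with library size only, for Trim63 with library size only (0.248), the replicate block (0.00745), limma voom (0.0244) and without 1 replicate (-0.0928 to 0.0529), for Cyp2r1 without 1 replicate (-0.323 to 0.988), and for Rps25 with limma voom (-0.087) and without 1 replicate (-0.165 to 0.11), all as log2 fold changes. Of 782 list medians under alternatives, 669 stayed within 1 SD of the reported value and 28 had the other sign. That SD is the spread of a list's median between the 3 VitD libraries, so it is wide where VitD replicate 1 stood apart. The median of proliferation genes fell from 0.82 to 0.45 without that library and still counted as within 1 SD (0.44). The glmTreat fit keeps the reported fold changes, so its medians could not move. The count of 669 is therefore no measure of how steady the medians are.

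With 2 control and 3 VitD libraries, a result rests on few libraries more than on depth, and a gene that was not called is not shown to be unchanged.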

Other observations

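LOC691532, a pseudogene that the GRCr8 annotation names Rps25-ps11, had the largest decrease, 29.6 and 29.9 CPM in the controls and 0.164, 0.189 and 0.169 CPM in VitD replicates 1 to 3 (log2 fold change -7.41, adjusted p = 1.07e-05, edgeR's quasi-likelihood test). It was at 0.194 and 0.177 CPM in the surgery libraries, and between 18.9 and 60.2 CPM in the 8 libraries of rats given pMT with or without VitD. The cause of this split between groups was not tested. Its reads can be shared with Rps25, a ribosomal protein gene with 427 and 486 CPM against 556, 430 and 384 CPM. It was chosen after its values were seen.

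There were 7 genes called in VitD against control under all 17 alternatives, LOC691532, C4a, Apoe, Mustn1, Wisp2, Slc47a1 and Matn4, and all but C4a were named after their values were seen. Apoe, a lipid carrier that macrophages secrete, had 122 and 104 CPM in the controls and 576, 401 and 353 CPM in VitD replicates 1 to 3 (log2 fold change 1.97). Mustn1, a small protein of muscle and skeletal repair, had 69.4 and 65.9 CPM against 602, 415 and 334 CPM (log2 fold change 2.73). Wisp2, a matricellular protein of the CCN family, had 2.15 and 1.73 CPM against 20.2, 12.8 and 10.8 CPM (log2 fold change 2.91). Slc47a1, an exporter of organic cations, and Matn4, a matrix protein, had log2 fold changes of 1.70 and 2.12.

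In VitD against surgery, the genes with the smallest unadjusted p on each side were Mex3c (16.2, 15.7 and 15.01 CPM in VitD against 11.6 and 11.9 CPM) and Cul4b (19.7, 19.7 and 14.5 against 13.1 and 13.0 CPM) for higher. For lower they were Sftpb (0, 0 and 0 CPM against 0.207 and 0.246 CPM) and Fam83g (0, 0 and 0 CPM against 0.0517 and 0.0955 CPM). None passed the adjusted threshold.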
